A study of Rattus norvegicus with 9 samples.

Results

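The 10 genes described here are those of colony-stimulating factor 1 (CSF1) signalling and of macrophages, followed in rat dorsal root ganglion (DRG), the ganglion that holds the cell bodies of sensory neurons. The genes were taken by symbol: the ligands Csf1 and Il34, their receptor Csf1r, the receptor Trem2 with its adaptor Tyrobp, the pan-macrophage markers Aif1, Cd68 and Itgam, and the scavenger receptors Cd163 and Mrc1. All 10 were found among the 20194 genes of the table, and all 10 were among the 14305 genes that were tested, which reached an FPKM (a read level corrected for gene length and library size) of at least 1 in at least 1 library. The study asked how blocking GPER, a membrane oestrogen receptor, alters the DRG in neuropathic pain. RNA was sequenced from 3 groups of male Sprague Dawley rats of 8 to 10 weeks, with 3 libraries in each. The study calls its sham rats sham-operated, and its methods do not describe that operation. In spared nerve injury (SNI) rats, the tibial and common peroneal nerves were tied and cut while the sural nerve was left intact. SNI + G15 rats had the same injury and received G15, an antagonist of GPER, into the intrathecal space on day 5, at 1.8 μg/μl in a volume of 1 μl. The labels give the same protocol for all 9 libraries, with an intrathecal catheter placed on day 5 and drugs dissolved in 2% DMSO (1% in the methods). They mark the sham and SNI libraries as controls for G15, but do not state that these rats were injected with vehicle, and if they were not, G15 and its injection cannot be told apart. The methods describe lumbar ganglia 4 to 6 of the injured side and 3 rats per group, whereas the supplement lists 6. The extraction protocol in the labels names macrophages treated with exosomes in place of DRG. The deposited values held neuronal RNA at high levels, since 12 sensory neuron markers summed to between 13707.5 and 14123.5 FPKM in sham libraries, against 98.72 to 107.55 for the 10 genes described here.

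CSF1 and interleukin 34 are separate ligands that bind the same receptor tyrosine kinase, CSF1R, on which macrophages and microglia depend for survival and proliferation. Injured sensory neurons are a known source of CSF1. TREM2 is a lipid-sensing receptor of macrophages with no signalling tail of its own, and it acts through TYROBP, which recruits the kinase SYK. In the DRG, macrophages lie around neuronal cell bodies and along vessels, and CD163 and MRC1 (CD206) are commonly used to mark the resident and perivascular kinds.

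Promoters were examined because the myeloid genes rose together after injury, as described in the following paragraphs, and because the myeloid factor PU.1 was itself measured. RefSeq sequence of the GRCr8 assembly was at hand for 6 of the 10 genes. None was at hand for Csf1, Il34, Tyrobp and Aif1. In the 250 bases before the annotated start, the letters GAGGAA, a core that PU.1 binds, were found on either strand in 5 of the 6 genes (Csf1r, Trem2, Cd68, Itgam and Mrc1) and in 23.3% of all 33469 promoters of that length. The AP-1 letters TGANTCA were found only in Cd68 among the 6, at 2 places, and in 6.34% of all promoters. The motifs cannot overlap in these matches. The sequences shown are 2 of genes that rose with injury and 2 of the scavenger receptors, 5′ to 3′ on the strand of the gene, with matches in capitals (TTCCTC is GAGGAA read on the other strand).
Cd68 (chr10:54882442-54882691, minus strand): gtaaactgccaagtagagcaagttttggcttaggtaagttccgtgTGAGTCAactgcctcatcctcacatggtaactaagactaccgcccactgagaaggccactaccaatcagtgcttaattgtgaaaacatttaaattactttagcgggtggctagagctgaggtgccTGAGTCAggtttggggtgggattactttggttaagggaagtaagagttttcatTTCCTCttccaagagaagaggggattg
Itgam (chr1:192089342-192089591, plus strand): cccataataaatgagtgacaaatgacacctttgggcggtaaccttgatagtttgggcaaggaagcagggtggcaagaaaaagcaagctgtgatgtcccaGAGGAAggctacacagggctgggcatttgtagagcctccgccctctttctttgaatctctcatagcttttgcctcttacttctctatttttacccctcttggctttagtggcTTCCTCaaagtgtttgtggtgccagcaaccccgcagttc
Cd163 (chr4:158770524-158770773, plus strand): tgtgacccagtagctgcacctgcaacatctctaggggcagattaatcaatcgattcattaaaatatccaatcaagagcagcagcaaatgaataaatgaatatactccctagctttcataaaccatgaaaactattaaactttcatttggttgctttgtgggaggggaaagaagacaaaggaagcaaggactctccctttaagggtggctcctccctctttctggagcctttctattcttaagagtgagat
Mrc1 (chr17:82157475-82157724, plus strand): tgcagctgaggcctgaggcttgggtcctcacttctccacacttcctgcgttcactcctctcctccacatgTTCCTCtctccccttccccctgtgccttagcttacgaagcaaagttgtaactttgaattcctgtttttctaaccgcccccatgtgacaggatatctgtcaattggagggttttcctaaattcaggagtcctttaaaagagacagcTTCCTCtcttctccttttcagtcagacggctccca
A match describes these letters only, and no match says only that the letters are absent from this window. Spi1, which encodes PU.1 and was chosen after its values were seen because its motif was searched, had FPKM values of 5.86, 6.7 and 5.26 in sham, 15.07, 11.43 and 12.8 in SNI and 13.2, 14.9 and 16.03 in SNI + G15. Its log2 fold change between SNI and sham was 1.11 (adjusted p = 2.98e-05, edgeR's quasi-likelihood test), and between SNI + G15 and SNI it was 0.19 (adjusted p = 0.280, the same test).

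Compared with the sham group, 9 of the 10 genes were higher in the SNI group at an adjusted p below 0.05, and none was lower. Of all tested genes, 45.7% passed that threshold, 23.3% higher and 22.4% lower. Csf1, Itgam, Cd68, Tyrobp and Aif1 each rose by more than 2-fold, and Csf1r rose by somewhat less. Il34, Trem2 and Mrc1 differed by small amounts, and Cd163 did not pass the test. The groups did not overlap, with every SNI library above every sham library in CPM (counts scaled to library size, not to length), for 8 genes, against 27.2% of all tested genes. The median log2 fold change of the 10 genes was 1.06, and that of all tested genes was 0.0010.

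Among the ligands, Csf1 (NCBI gene 78965) had FPKM values of 5.75, 5.96 and 6.09 in sham libraries, 26.83, 26.59 and 27.26 in SNI libraries and 28.86, 28.29 and 28.12 in SNI + G15 libraries. The sham libraries lay far below the other 6, and replicates of a group differed by less than 1 FPKM. Csf1 rose 4.42-fold after SNI (95% interval 4.12 to 4.74, log2 fold change 2.14, adjusted p = 1.50e-10, edgeR's quasi-likelihood test). This was the largest fold among the 10 genes. Il34 (NCBI gene 498951), whose product shares the receptor, had FPKM values of 22.81, 24.91 and 25.72 in sham, 27.1, 28.36 and 28.2 in SNI and 31.35, 31.89 and 32.02 in SNI + G15. The 3 groups did not overlap, but they lay close together. The fold between SNI and sham was 1.11 (95% interval 1.02 to 1.21, adjusted p = 0.0378, edgeR), and this call was lost with DESeq2 (adjusted p = 0.103) and when sham replicate 1 or any SNI replicate was left out (adjusted p from 0.0747 to 0.102). The estimated counts of Il34 were not whole in 9 of 9 libraries, which happens when a read could come from more than 1 sequence, so its level is less certain than that of Csf1.

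The ratio of Csf1 to Il34, both as FPKM within a library, was 0.252, 0.239 and 0.237 in sham, 0.990, 0.938 and 0.967 in SNI and 0.921, 0.887 and 0.878 in SNI + G15. Il34 was therefore the more abundant ligand per length in sham libraries, and the ligands were at nearly equal levels in SNI libraries. Every SNI + G15 ratio lay below every SNI ratio, by a small margin.

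**Figure D1:**
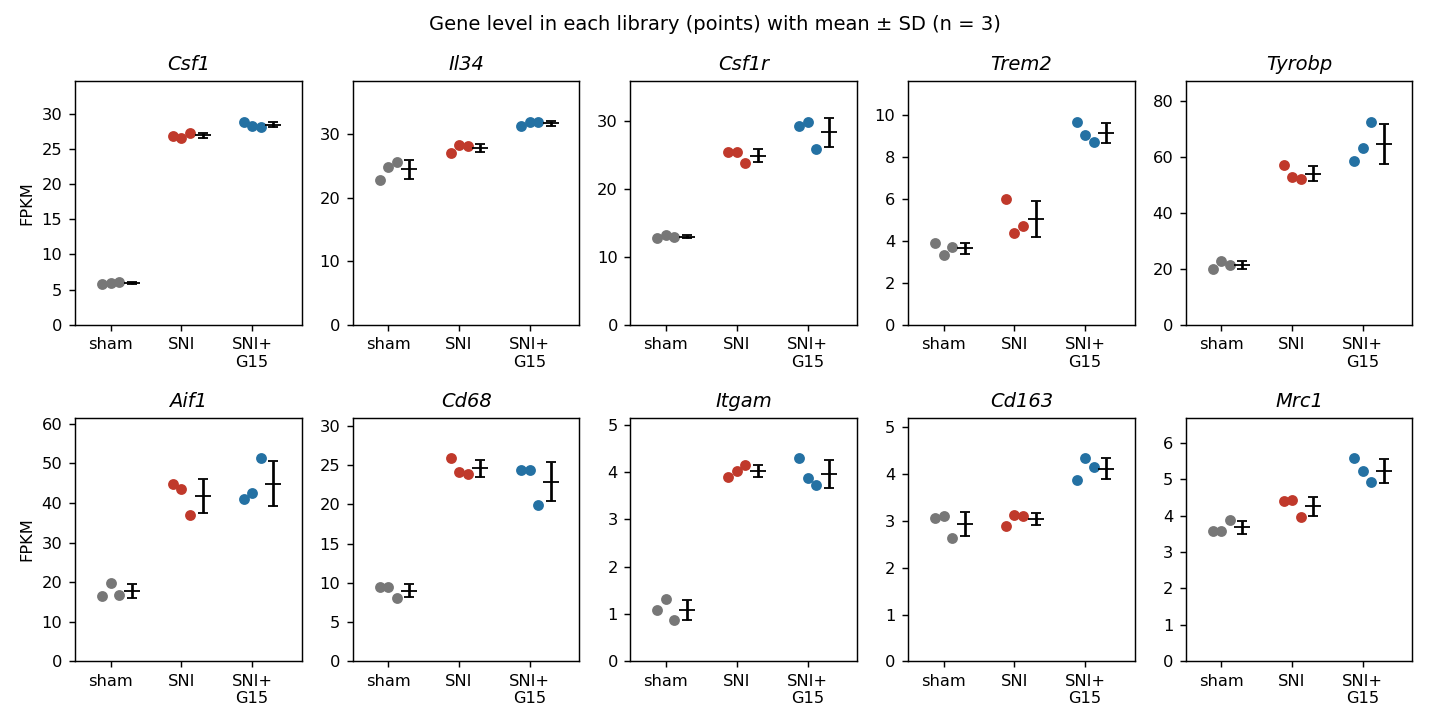
FPKM (vertical axis, from 0) of the 10 genes in each of 9 libraries, by group. Points are libraries and the bar beside them is the mean ± SD (n = 3). Csf1 sits near 6 FPKM in sham and between 26.59 and 28.86 in the injured groups, while Trem2, Cd163 and Mrc1 are highest in SNI + G15.

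Csf1r (NCBI gene 307403), the receptor of both ligands, had FPKM values of 12.79, 13.16 and 12.92 in sham, 25.4, 25.37 and 23.73 in SNI and 29.21, 29.84 and 25.85 in SNI + G15. It rose 1.90-fold after SNI (95% interval 1.77 to 2.03, adjusted p = 7.76e-08, edgeR's quasi-likelihood test). The 95% interval of Csf1r lay wholly below that of its ligand Csf1. Tyrobp (NCBI gene 361537), the adaptor, had FPKM values of 19.79, 22.9 and 21.45 in sham, 57.1, 52.97 and 52.29 in SNI and 58.61, 63.11 and 72.68 in SNI + G15. It rose 2.48-fold after SNI (95% interval 2.22 to 2.77, adjusted p = 2.05e-07, the same test). Trem2 (NCBI gene 301227), which signals through Tyrobp, had FPKM values of 3.88, 3.35 and 3.72 in sham, 6.01, 4.39 and 4.69 in SNI and 9.69, 9.04 and 8.71 in SNI + G15. SNI replicate 1 was well above the other SNI libraries. Its fold after SNI was 1.38 (95% interval 1.09 to 1.73, adjusted p = 0.0282, the same test), an interval below that of Tyrobp. Trem2 counts were low, from 68 to 79 per sham library, and the call was lost without SNI replicate 1 (log2 fold change 0.32, adjusted p = 0.122), without sham replicate 2 or 3 (adjusted p = 0.0800 and 0.0621) and with DESeq2 (adjusted p = 0.0794).

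The 3 pan-macrophage markers rose together. Cd68 (NCBI gene 287435), a lysosomal protein of phagocytes, had FPKM values of 9.45, 9.5 and 8.07 in sham, 25.87, 24.14 and 23.86 in SNI and 24.36, 24.41 and 19.99 in SNI + G15. Aif1 (NCBI gene 29427), which encodes the macrophage and microglia protein IBA1, had FPKM values of 16.54, 19.79 and 16.83 in sham, 44.81, 43.58 and 36.93 in SNI and 40.94, 42.55 and 51.28 in SNI + G15. Itgam (NCBI gene 25021), the integrin chain CD11b that neutrophils also carry, had FPKM values of 1.08, 1.31 and 0.88 in sham, 3.9, 4.03 and 4.14 in SNI and 4.29, 3.87 and 3.73 in SNI + G15. For each of these markers, every SNI and SNI + G15 library lay above every sham library, and the injured groups overlapped each other. The fold after SNI was 2.68 for Cd68 (95% interval 2.39 to 2.999, adjusted p = 1.32e-07, edgeR's quasi-likelihood test). It was 2.30 for Aif1 (95% interval 2.00 to 2.65, adjusted p = 2.46e-06). For Itgam it was 3.54 (95% interval 2.87 to 4.35, adjusted p = 1.82e-06), from 60 to 99 estimated counts per sham library, and its counts were not whole in 3 of 9 libraries. Bulk RNA cannot tell apart more macrophages from more of these transcripts per macrophage.

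The scavenger receptors stood apart from the pan-macrophage markers. Cd163 (NCBI gene 312701), which takes up haemoglobin bound to haptoglobin, had FPKM values of 3.05, 3.1 and 2.64 in sham, 2.89, 3.13 and 3.09 in SNI and 3.87, 4.33 and 4.14 in SNI + G15. The sham and SNI libraries overlapped, and every SNI + G15 library lay above both. Its fold after SNI was 0.960 (95% interval 0.845 to 1.09, adjusted p = 0.590, edgeR's quasi-likelihood test). Mrc1 (NCBI gene 291327), the mannose receptor, had FPKM values of 3.58, 3.57 and 3.88 in sham, 4.39, 4.43 and 3.95 in SNI and 5.57, 5.22 and 4.91 in SNI + G15. Its fold after SNI was 1.13 (95% interval 1.02 to 1.26, adjusted p = 0.0442, the same test), with overlapping groups in CPM, and the call was lost in 12 of 16 alternative analyses (adjusted p up to 0.170). The upper limits for both scavenger receptors were thus below the lower limits for Cd68, Aif1 and Itgam.

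Within each library, other genes were also set against Cd68. The Cd163 to Cd68 ratio of FPKM was 0.323 to 0.327 in sham and 0.112 to 0.130 in SNI. The Mrc1 to Cd68 ratio was 0.376 to 0.481 in sham and 0.166 to 0.184 in SNI. The Trem2 to Cd68 ratio was 0.353 to 0.461 in sham and 0.182 to 0.232 in SNI, so all 3 ratios were lower in every SNI library than in any sham library. So was the Csf1r to Cd68 ratio, at 1.35 to 1.60 in sham and 0.982 to 1.05 in SNI. Cd68, the divisor, itself rose 2.68-fold, so a ratio to it falls for any gene that did not rise as much, such as Cd163 (fold 0.960). The Itgam to Cd68 ratio was instead higher in every SNI library, at 0.109 to 0.138 in sham and 0.151 to 0.174 in SNI, and the Aif1 to Cd68 ratio overlapped between the groups.

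**Figure D2:**
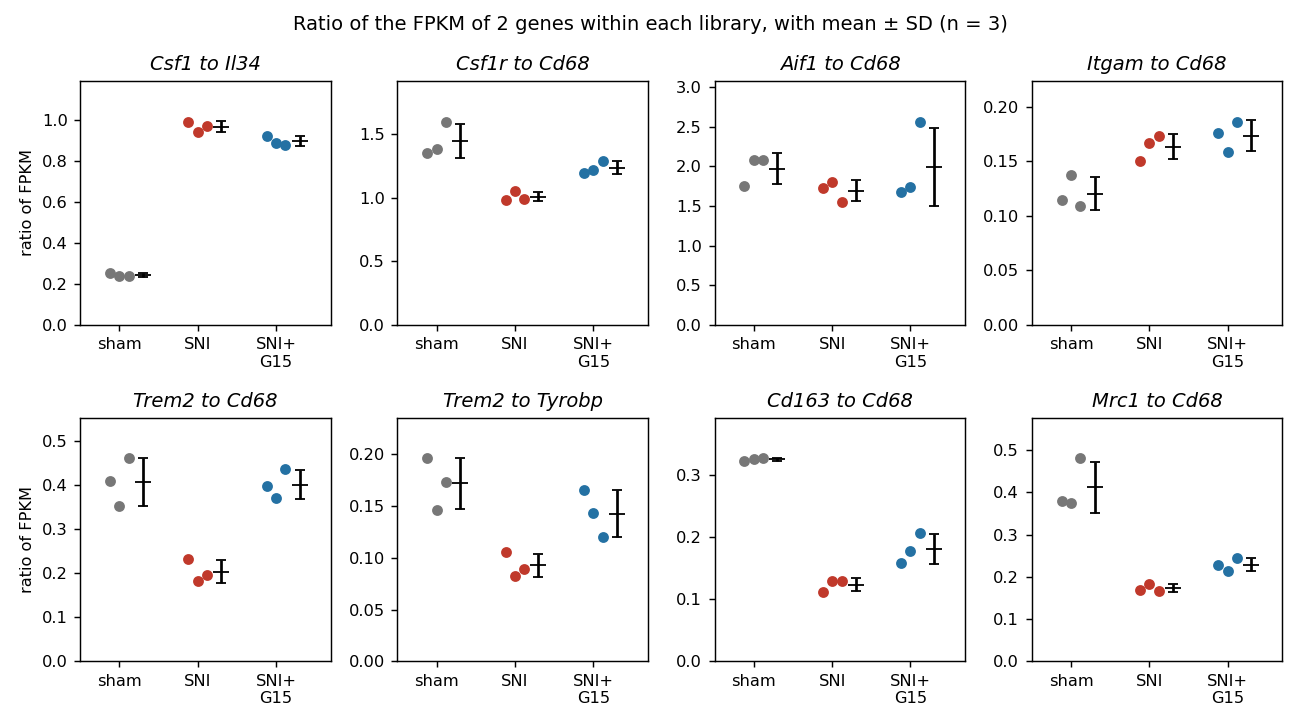
Ratio of the FPKM of a pair of genes within each library (vertical axes, from 0), by group, with the mean ± SD (n = 3) beside the points. The Trem2 to Cd68 ratio lies between 0.353 and 0.461 in sham libraries, between 0.182 and 0.232 in SNI libraries and between 0.370 and 0.436 with G15.

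Compared with the SNI group, 4 of the 10 genes were higher in the SNI + G15 group at an adjusted p below 0.05, and none was lower. Of all tested genes 15.2% passed, 7.98% higher and 7.25% lower. They were Trem2, Cd163, Mrc1 and Il34. The pan-macrophage markers Cd68, Aif1 and Itgam and the ligand Csf1 did not pass the test. For 7 genes, including Csf1, Csf1r and Tyrobp, every SNI + G15 library lay above every SNI library in CPM, against 19.4% of all tested genes. The median log2 fold change of the 10 genes was 0.19, beside 0.0063 for all tested genes.

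Trem2 had the largest fold, 1.83 (95% interval 1.51 to 2.21, adjusted p = 0.00234, edgeR's quasi-likelihood test). Its counts were 91 to 122 per SNI library and 178 to 198 per SNI + G15 library. Cd163 followed with 1.39 (95% interval 1.27 to 1.53, adjusted p = 0.00146, the same test). Both calls held in each of 16 alternative analyses, with adjusted p up to 0.0158 for Trem2 and 0.0140 for Cd163. The estimated counts of Cd163 were not whole in 2 of 9 libraries. For Mrc1 the fold was 1.24 (95% interval 1.11 to 1.38, adjusted p = 0.0181), and it was lost without SNI replicate 2 (adjusted p = 0.0514) or SNI replicate 3 (adjusted p = 0.0787). For Il34 it was 1.15 (95% interval 1.06 to 1.24, adjusted p = 0.0280), and 7 of the 16 alternatives lost it (adjusted p up to 0.105).

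Among the genes that did not pass, the fold of Csf1 was 1.07 (95% interval 1.01 to 1.13, adjusted p = 0.128, edgeR's quasi-likelihood test). That interval, which is not adjusted for the number of genes, lay above 1. For Csf1r the fold was 1.14 (95% interval 1.04 to 1.25, adjusted p = 0.0567), and for Tyrobp it was 1.22 (95% interval 1.07 to 1.39, adjusted p = 0.0543). For Cd68 it was 0.939 (95% interval 0.828 to 1.06, adjusted p = 0.466), for Itgam 0.996 (95% interval 0.894 to 1.11, adjusted p = 0.959) and for Aif1 1.10 (95% interval 0.933 to 1.29, adjusted p = 0.403). These intervals leave room for changes of that size in either direction for the pan-macrophage markers.

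SNI + G15 replicate 3 differed most from its own group, with a chi-square per gene of 9.24 and 8.93 against replicates 1 and 2, which differed from each other by 3.29. It had the highest Tyrobp and Aif1 of all libraries, the genes with the shortest effective lengths of the 10 (510 and 638 bases), and the lowest Csf1r, Cd68, Itgam, Trem2 and Mrc1 of its group. Without it, 5 genes were higher in SNI + G15 than in SNI. Csf1r was then added, with a log2 fold change of 0.25 (adjusted p = 0.00445, edgeR's quasi-likelihood test), Trem2 had 0.91 (adjusted p = 0.00177), Cd163 had 0.46 (adjusted p = 0.00182), and Tyrobp had 0.19 (adjusted p = 0.0696). With offsets that remove the dependence of fold on gene length, an analysis added after the data were seen, the log2 fold change of Tyrobp between SNI + G15 and SNI was 0.0045 in place of 0.29 (adjusted p = 0.970), and that of Trem2 was 0.75 (adjusted p = 0.00526). The same offsets placed Csf1 and Csf1r past the threshold (adjusted p = 0.0273 and 0.0147) and Il34 outside it (adjusted p = 0.0672).

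**Figure D3:**
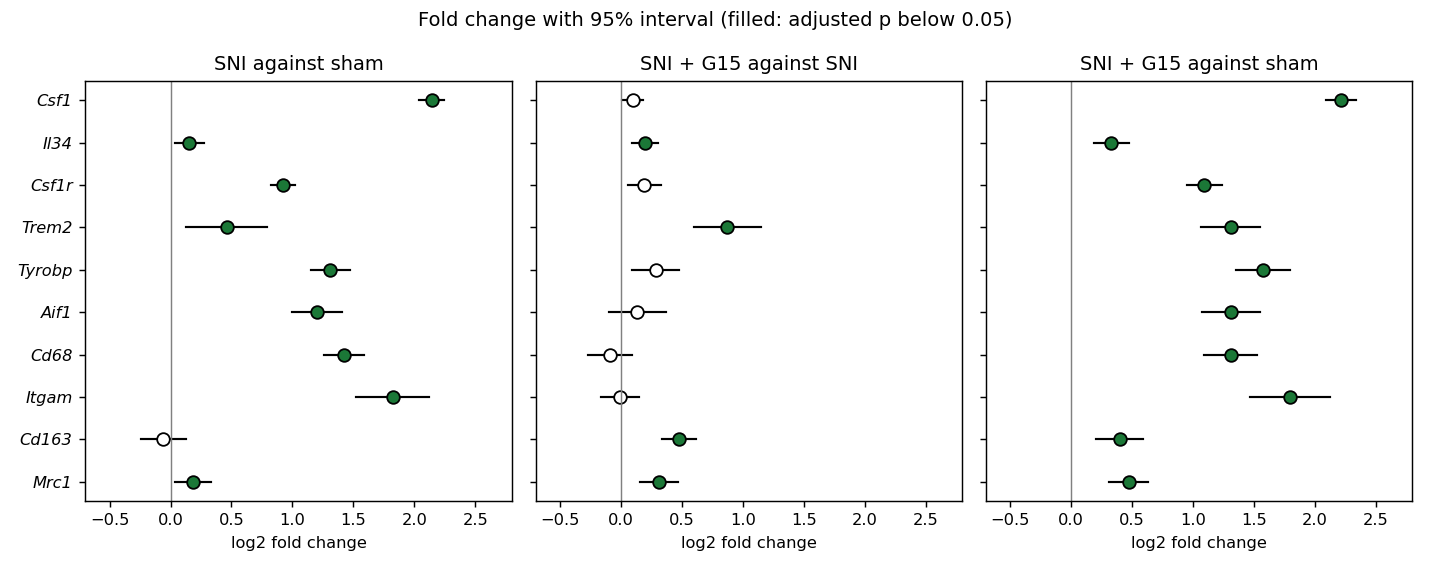
Log2 fold change of the 10 genes (points) with the 95% interval (lines) in each comparison of groups, from edgeR. Filled points have an adjusted p below 0.05: 9 genes in SNI against sham, 4 in SNI + G15 against SNI and 10 in SNI + G15 against sham.

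Compared with the sham group, all 10 genes were higher in the SNI + G15 group at an adjusted p below 0.05, where 43.2% of tested genes passed, 21.4% higher and 21.9% lower. None of the 10 overlapped between the groups, against 28.1% of tested genes that lay wholly higher. The comparison shares its libraries with those above, so the values are given side by side only. The log2 fold change of Csf1 was 2.14 in SNI and 2.22 in SNI + G15, each against sham. For Trem2 it was 0.46 and 1.31. For Cd163 it was -0.059 and 0.40, and for Mrc1 it was 0.18 and 0.47. For Cd68 it was 1.42 and 1.31, and for Itgam 1.82 and 1.79. Within libraries, the Trem2 to Cd68 ratio of FPKM was 0.370 to 0.436 in SNI + G15, which overlapped sham and not SNI. The Cd163 to Cd68 ratio was 0.159 to 0.207 and the Mrc1 to Cd68 ratio 0.214 to 0.246, and both lay between the ranges of SNI and sham.

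Levels per length placed the 10 genes in a different order in sham than in the injured groups. The order in SNI + G15 was that of SNI, except that Itgam and Cd163 changed places at ranks 9 and 10. In sham, Il34 was highest (22.81 to 25.72 FPKM), ahead of Tyrobp (19.79 to 22.9) and Aif1 (16.54 to 19.79), and each of these overlapped its neighbour in the order. In SNI, Tyrobp (52.29 to 57.1) and Aif1 (36.93 to 44.81) were above Il34 (27.1 to 28.36) and Csf1 (26.59 to 27.26), and Il34 and Csf1 overlapped. Csf1 was thus 6th of the 10 in sham and 4th in SNI. Itgam was lowest in sham and in SNI + G15 and Cd163 in SNI, and Itgam and Cd163 overlapped in SNI + G15.

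Over the 9 libraries, the tested genes whose values of log2(FPKM + 1) were most like those of Csf1 were Sprr1a (Pearson's r = 0.9995), Reg3b, Vip, Fcrl2 and Jun (r = 0.9989). Sprr1a, Vip and Jun were on the list of injured neuron markers. All 8 genes of that list were higher in SNI than in sham (median log2 fold change 4.94), and 1 of the 8, Npy, was higher in SNI + G15 than in SNI. Of all tested genes, 23.3% and 7.98% were higher in these comparisons. Neither Csf1 nor Jun passed between SNI + G15 and SNI. For Csf1r the most similar genes were Entpd2 (r = 0.9986), Cyp27b1, Dusp1, Pip5k1b and Litaf (r = 0.9960). The 9 points share 3 groups, so any gene with a large step between sham and injury has a high r. Among the 10 genes themselves, r with Csf1 was 0.989 for Itgam, 0.985 for Csf1r and 0.982 for Cd68, and 0.752 for Trem2 and 0.570 for Cd163.

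The deposited values divide some of the genes into transcripts. The share of Csf1r FPKM given to the transcript NM_001029901.1 was 60.0%, 62.8% and 49.5% in sham, 12.1%, 31.8% and 12.5% in SNI and 44.4%, 41.3% and 45.8% in SNI + G15, and XM_006254813.3 took the rest. The groups did not overlap, with SNI lowest, although SNI replicate 2 was well above the other SNI libraries. The rise of Csf1r between sham and SNI thus lay in XM_006254813.3, which had 4.89 to 6.53 FPKM in sham libraries and 17.3 to 22.32 in SNI libraries. For Tyrobp, the share of XM_008759166.2 was 16.1% to 22.2% in SNI + G15 and did not exceed 14.5% in the other libraries. For Trem2, NM_001106884.1 held 22.9% to 54.4% in sham and at least 56.1% in SNI, from few reads. For Cd163, XM_006237352.3 held 32.4% to 40.3% in sham and 42.6% to 56.8% in SNI. Divisions could vary widely within a group, as for NM_023981.4 of Csf1, which ranged from 63.7% to 87.2% within sham alone. These shares are estimates from reads that the transcripts have in common, and no test was made.

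**Figure D4:**
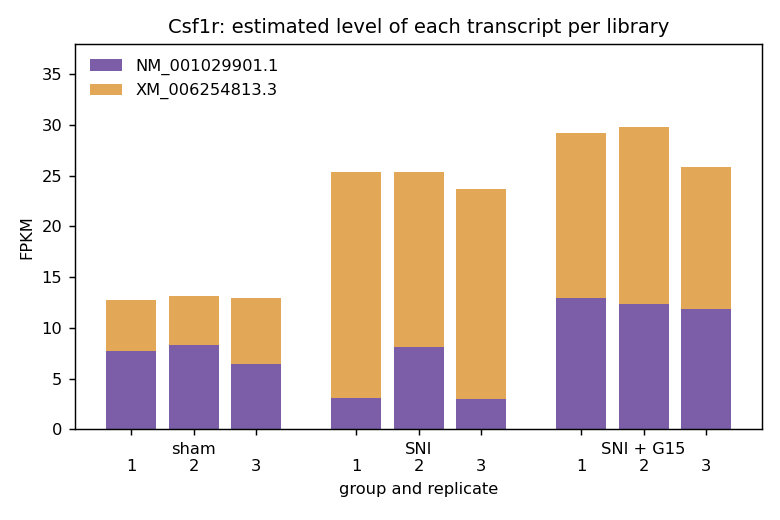
FPKM of Csf1r in each of 9 libraries (bars, vertical axis from 0), divided into the estimated levels of its 2 transcripts. In SNI libraries XM_006254813.3 makes up 17.3 to 22.32 FPKM of the total, and in sham libraries 4.89 to 6.53.

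The rest of the macrophage programme was described with lists of genes by role. The counts called in each list stand beside the shares of all tested genes. After SNI these were 23.3% higher and 22.4% lower, and between SNI + G15 and SNI they were 7.98% higher and 7.25% lower. After SNI, all 20 pan-macrophage genes were higher (median log2 fold change 1.17). Fcgr2b, an inhibitory Fc receptor, had the largest rise (log2 fold change 3.15, adjusted p = 1.53e-09, edgeR's quasi-likelihood test), from 1.41 ± 0.0854 to 12.8 ± 0.347 FPKM (SD, n = 3). Fcgr3a, an activating Fc receptor, rose by 2.13, and the scavenger receptor Msr1 rose by 1.73. The estimated counts of Fcgr2b and Msr1 were not whole in any of 9 libraries, so these values are uncertain. Between SNI + G15 and SNI, 2 of the 20 genes were higher and 4 were lower, with a median of -0.038. Fcgr3a (log2 fold change -0.67, adjusted p = 0.00173), Msr1 (-0.43, adjusted p = 0.0196) and Ptprc (-0.43, adjusted p = 0.00991), the leukocyte antigen CD45, were lower. Cd14, a coreceptor for lipopolysaccharide (0.37, adjusted p = 0.0151), and Lyz2, lysozyme (0.23, adjusted p = 0.00250), were higher. Their counts were not whole in 9 of 9 libraries.

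Of 11 tested genes for resident and perivascular macrophages, 6 were higher and 5 lower after SNI, and 6 were higher and 2 lower in SNI + G15 compared with SNI (median log2 fold change 0.30). Lyve1, a hyaluronan receptor that lymphatic endothelium also carries, had 3.14 ± 0.287 FPKM in sham, 2.25 ± 0.231 in SNI and 5.19 ± 0.445 in SNI + G15 (SD, n = 3). It was lower after SNI (log2 fold change -0.51, adjusted p = 0.00283) and higher with G15 than in SNI (1.22, adjusted p = 0.000160, edgeR's quasi-likelihood test). F13a1, a coagulation factor chain, followed the same course, with -0.51 (adjusted p = 0.00557) and 0.86 (adjusted p = 0.000380). Stab1, a scavenger receptor, had 0.72 between SNI + G15 and SNI (adjusted p = 0.000382). Ms4a7 went the other way, with 1.73 after SNI (adjusted p = 1.37e-05) and -0.997 with G15 compared with SNI (adjusted p = 0.00245). The sialic acid receptor Siglec1 also rose after SNI (0.67, adjusted p = 0.000138) and was lower with G15 than in SNI (-0.29, adjusted p = 0.0447). Folr2 rose after SNI as well (0.80, adjusted p = 3.51e-05). Of the genes lower after SNI, Ccl24 fell most (-0.84, adjusted p = 0.0135). It did not recover, since SNI + G15 against sham gave -1.21 (adjusted p = 0.00300). Gas6 did not recover either, with -0.62 for SNI + G15 against sham (adjusted p = 4.92e-06). Selenop, the remaining lower gene, had 160.56 to 161.26 FPKM in SNI libraries and 196.07 to 197.68 with G15. The estimated counts of Lyve1, Stab1, Siglec1, Ccl24 and Selenop were not whole in 9 of 9 libraries.

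Of 15 genes on a list named for Trem2 and lipid handling, 10 were higher and 4 lower after SNI. In SNI + G15 compared with SNI, 8 were higher and 1 lower (median log2 fold change 0.15). The list also holds genes with other roles, and whether its genes depend on Trem2 was not tested. Itgax, the integrin chain CD11c (2.20, adjusted p = 1.37e-06), Lilrb4, an inhibitory receptor (2.01, adjusted p = 2.28e-06), and Clec7a, a receptor for fungal glucan (1.97, adjusted p = 6.22e-08), rose most after SNI. The lipase Lpl was lower (-0.83, adjusted p = 0.00105). With G15 compared with SNI, Gpnmb, a glycoprotein of lipid-laden macrophages, had 14.8 ± 0.723 FPKM in SNI and 24.2 ± 0.980 in SNI + G15 (log2 fold change 0.72, adjusted p = 0.000172, edgeR's quasi-likelihood test), and Itgax was lower (-0.57, adjusted p = 0.0112). Cd63 (0.36, adjusted p = 0.00910) and Fabp5 (0.26, adjusted p = 0.0465) were higher. Mean FPKM in SNI + G15 was 209 for Cd63 and 712 for Fabp5, beside 22.9 for Cd68. Which cells of the ganglion held the RNA of the genes on this list was not tested. The counts of Itgax were not whole in 7 of 9 libraries.

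Downstream of the receptors, 12 of 18 adaptors and kinases were higher and 1 lower after SNI (median log2 fold change 0.44). Vav1, an exchange factor (1.25, adjusted p = 6.93e-05), the kinase Lyn (1.17, adjusted p = 1.81e-06) and the lipid kinase subunit Pik3cg (1.13, adjusted p = 5.15e-06) rose most, and Gab2 was lower (-0.18, adjusted p = 0.00712). Between SNI + G15 and SNI, none of the 18 was higher and 2 were lower, namely the adaptor Pik3ap1 (-0.63, adjusted p = 0.00610) and Lyn (-0.23, adjusted p = 0.0440, edgeR's quasi-likelihood test). That was 11.1% of the list, beside 15.2% of all tested genes. Of 12 macrophage transcription factors, 9 were higher and 2 lower after SNI, led by Tfec (1.97, adjusted p = 0.000206), Irf8 (1.34, adjusted p = 5.68e-07) and Batf3 (1.31, adjusted p = 0.000313). Tfec reached an FPKM of 1 only in the SNI group (0.95, 1 and 1.3), so it was tested only through the group where it was highest. With G15 compared with SNI, Nr1h3, the liver X receptor of cholesterol efflux (0.58, adjusted p = 0.00258), and Cebpb (0.48, adjusted p = 0.00990) were higher and the other 10 did not pass. The share called was 16.7% of this list, near that of all tested genes.

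Monocyte genes were higher after SNI in 8 of 10, led by the chemokine Ccl2 (log2 fold change 1.90, adjusted p = 3.41e-07, edgeR's quasi-likelihood test), and in SNI + G15 compared with SNI 3 were higher and 1 lower. Ccr2 and Chil3, also on that list of 12, were not analysed here. Bulk RNA does not say which cells held Ccl2, and an entry of monocytes was not tested. The monocyte genes higher with G15, S100a4 (0.74, adjusted p = 0.00162), Fn1 (0.48, adjusted p = 0.000684) and Vcan (0.46, adjusted p = 0.00574), are also expressed by fibroblasts. Of 6 tested microglia-enriched genes, 4 were higher after SNI, with Tmem119 (1.58, adjusted p = 1.86e-05) and Gpr34 (1.49, adjusted p = 2.31e-05) first, and 1 was lower. The lower gene, Olfml3 (-0.30, adjusted p = 0.00292), was the only one higher with G15 compared with SNI (0.46, adjusted p = 0.00123). Of 12 proliferation genes, 7 were higher after SNI, among them Mcm5 (1.87, adjusted p = 1.30e-06), Top2a (1.73, adjusted p = 9.05e-06) and Mki67 (1.21, adjusted p = 3.12e-05). With G15 compared with SNI, Aurkb (1.26, adjusted p = 0.00497) and Birc5 (0.75, adjusted p = 0.0473) were higher and Mcm5 was lower (-0.39, adjusted p = 0.0230). Aurkb reached an FPKM of 1 only in SNI + G15 libraries (1.46, 1.65 and 1.25), so it was tested only through the group where it was high.

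**Figure D5:**
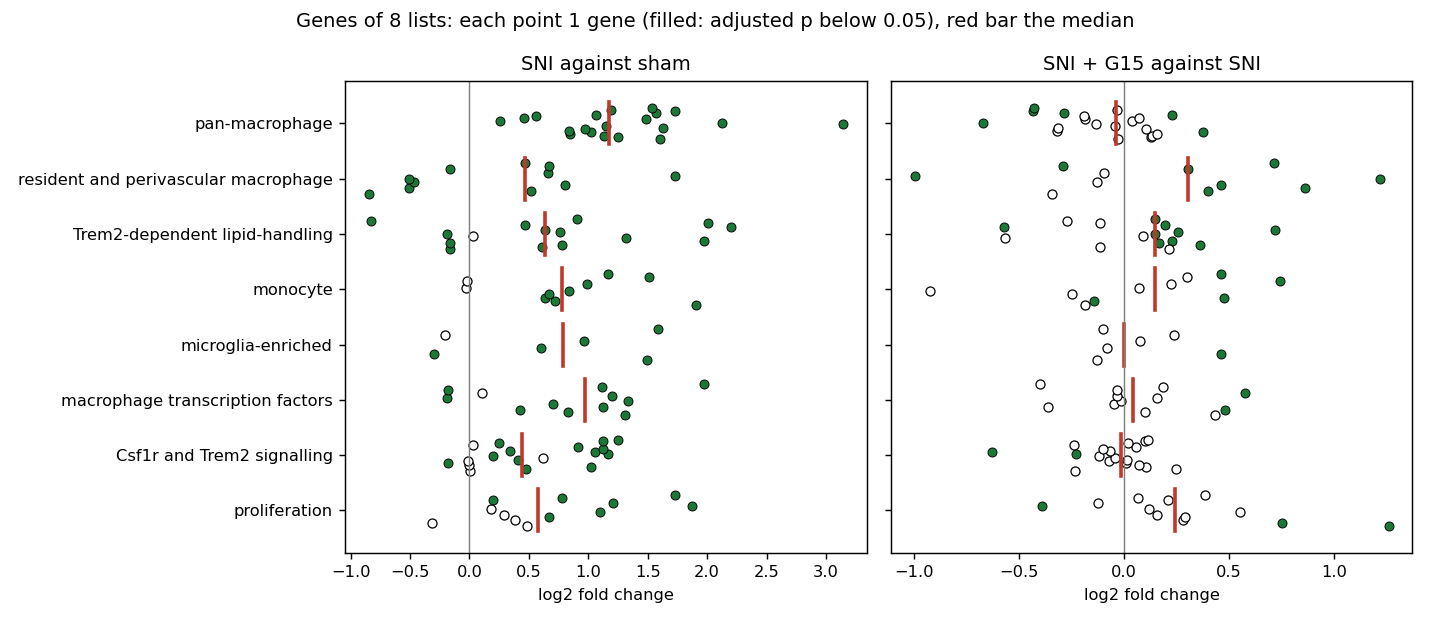
Log2 fold change (horizontal axis) of each tested gene of 8 lists (rows), for SNI against sham on the left and for SNI + G15 against SNI on the right. Filled points have an adjusted p below 0.05 and red bars are list medians, which for pan-macrophage genes are 1.17 and -0.038 and for resident and perivascular macrophage genes 0.46 and 0.30.

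Markers of other cell types moved in the same comparisons. After SNI, 6 of 8 neutrophil markers and 4 of 7 tested T cell markers were higher, with summed FPKM of 129.58 to 154.68 in sham and 204.96 to 238.02 in SNI for neutrophils and of 15.79 to 17.24 and 33.34 to 33.99 for T cells. Most of the T cell sum was Cd4, which rat macrophages also express, at 11.96 to 12.54 FPKM in sham and 25.56 to 26.43 in SNI. Among Schwann cell markers 6 of 7 were lower. Among 12 sensory neuron markers 7 were lower and 2 higher. The higher ones were Tubb3 (log2 fold change 0.35, adjusted p = 5.58e-06, edgeR's quasi-likelihood test) and Prph (0.28, adjusted p = 2.70e-05, the same test). Of 7 satellite glia markers 4 were higher and none lower, and of 7 fibroblast markers 2 were higher and 3 lower. The summed level of 5 B cell markers was 1.43 to 2.20 FPKM over all libraries, with 1 of the 5 tested. Between SNI + G15 and SNI, all 7 fibroblast markers were higher (median log2 fold change 0.42, summed FPKM 459.86 to 461.64 in SNI libraries and 627.07 to 651.29 with G15), and so were 5 of 7 Schwann cell markers and 3 of 4 tested mast cell markers. The mast cell markers higher with G15 were Cma1, Tpsb2 and Cpa3, at 0.05 to 0.30 FPKM in SNI libraries and 0.96 to 1.99 with G15. None of them reached an FPKM of 1 outside SNI + G15, so they were tested only through the group where they were high. Their counts were 1 to 8 per SNI library. Most of the mast cell sum, 10.68 to 11.68 FPKM in SNI libraries and 14.37 to 15.25 with G15, was Kit, which did not pass the test (log2 fold change -0.045, adjusted p = 0.551, edgeR's quasi-likelihood test). Of the T cell markers, 2 were higher, Cd8a (log2 fold change 0.89, adjusted p = 0.0142, the same test) and Cd4 (0.14, adjusted p = 0.0470). The 2 lower were Cd3e (-1.69, adjusted p = 0.0100) and Cd3d (-2.39, adjusted p = 0.0329). Cd3e and Cd3d reached an FPKM of 1 only in SNI libraries, so they were tested only through the group where they were high. Among 8 neutrophil markers 1 was higher. Of 7 endothelial markers 1 was higher and 1 lower, of 7 satellite glia markers 3 were higher and 2 lower, and of 12 sensory neuron markers 1 was higher and 2 lower. Of all tested genes, 7.98% were higher and 7.25% lower in this comparison. The T cell marker Cd5 was at 0 in SNI + G15, no listed marker of fibroblasts, Schwann cells or mast cells was at 0 in either group, and the part of these cells in the values of Trem2, Cd163, Mrc1 and Il34 was not tested.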

How the data were processed

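The authors sequenced DRG RNA as paired reads of 150 bp and deposited FPKM, TPM and estimated counts per gene and per transcript; the aligner is not given in the sources used here, and the labels name a mouse build although the gene identifiers are those of rat. The authors' FPKM values are normalized for depth and length, and the deposited estimated counts are unnormalized and can hold fractions of a read. TPM and the authors' fold changes and p-values were not used. Columns named for a control were taken as sham.

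Values were rounded to whole counts, and edgeR 4.0.16 tested them (R 4.3.3, TMM, quasi-likelihood test, Benjamini-Hochberg adjustment over all 14305 tested genes), using the 6 libraries compared. Library totals were 18484557 to 18756736 estimated reads. The methods give 3 rats per group, but the labels do not tie each library to a rat and the supplement lists 6, so p-values measure the spread between these samples. Alternatives used DESeq2 1.42.0, limma 3.58.1 on log2 of FPKM plus 1 or 0.1, other scalings and filters, a replicate block, and fits that left out 1 replicate at a time. Same-numbered replicates did not deviate together (r from -0.13 to 0.069 over 9 pairs). In counts simulated for 14305 genes with 200 changed, edgeR recovered 95% with 16 false calls in the design of SNI + G15 against SNI. Each changed gene was moved by 1 on the log2 scale and was drawn only from genes above a floor of mean count. The largest log2 fold change of the 10 genes in that comparison was 0.87, so the 95% does not say how often folds of their size are found.

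The 10 genes and the lists were chosen with earlier results of these data known. From each list, at most 3 called genes per direction with the largest folds are named, and for Csf1 and Csf1r the 5 genes with the highest r. Of the listed genes, 3 were not analysed here. Some named genes, among them Itgax, Top2a, Mki67, Vav1, Pik3cg, Tmem119, Sprr1a and Vip, reached an FPKM of 1 only in injured libraries. They were tested only through the groups where they were high, so their rise is not independent of that filter.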

Additional observations from a re-analysis of the deposited data

How the results depend on the processing

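Each comparison was run under 16 alternatives, and 19 of the 30 fold changes (10 genes in 3 comparisons) kept their direction and their side of the threshold in all of them. The number of genes called stayed at 10 between SNI + G15 and sham. Between SNI and sham it ranged from 6 to 9, with 6 to 8 when 1 replicate was left out. Between SNI + G15 and SNI it ranged from 2 to 6, with 2 to 5 when 1 replicate was left out and 2 without SNI replicate 2 or without SNI replicate 3, where fewer samples entered the fit. Those 2 fits called 6.47% and 6.24% of all tested genes, and the 6 genes came from 1 fit of all 9 libraries, which called 16.9%. Over all alternatives, the share of all genes called between SNI and sham was 34.0% to 48.0%. With the replicate block, 8, 3 and 10 genes were called in SNI against sham, SNI + G15 against SNI and SNI + G15 against sham. The fold changes that reversed were close to 0. Cd163 between SNI and sham was 0.040 and 0.053 on the log2 scale with limma on log2 of FPKM plus 1 and plus 0.1. Between SNI + G15 and SNI, the length-corrected offsets gave -0.10 for Aif1 and 0.044 for Itgam, and Itgam ranged from -0.056 to 0.026 when 1 replicate was left out (0.010, 0.0069, 0.0098 and 0.026 in the 4 that reversed). The cause was not tested. The lowest counts of the 10 genes in any library were those of Itgam (60) and Trem2 (68), where counting error is largest relative to the value.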
